A study of Mus musculus with 20 samples.

Results

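Immediate early genes are the first genes that neurons transcribe after synaptic activity or a growth signal, and 10 of them are described here in the cerebral cortex of PS19 tau transgenic and wild-type mice. They were chosen by symbol, as Fos, Fosb, Junb, Egr1, Egr2, Arc, Npas4, Nr4a1, Ier2 and Dusp1, and are 10 of the 21949 genes in the deposited messenger RNA table. Each symbol matched 1 gene, and the value of a gene is the sum over its transcripts. The cortex was frozen, and RNA was sequenced from 20 libraries, 5 in each of 4 groups. TG03M and TG10M are PS19 mice, Tg(Prnp-MAPT*P301S)PS19Vle, aged 3 and 10 months, whose transgene encodes human tau with the P301S mutation behind a Prnp promoter. WT03M and WT10M are wild-type mice of the same ages, and all mice were on a (C57BL/6 x C3H)F1 background. The Prnp promoter is active in many cell types, so the transgene does not mark neurons, and only RNA with an integrity number above 7 was sequenced. Whether replicates are separate animals is not stated in the labels. The p-values therefore set group differences against variation between libraries, which may not be variation between animals. In bulk cortex, fewer cells of a type and less RNA per cell cannot be told apart.

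Calcium entry through NMDA receptors and voltage-gated channels activates kinases of the CaMK and ERK pathways. These act on CREB, on serum response factor with its Elk partners and on MEF2, transcription factors already bound at the early genes, so that transcription starts within minutes without new protein. Several of the products, among them Fos, Egr1 and Npas4, are transcription factors that then drive later genes, while others, such as Arc at synapses and Dusp1 on MAP kinases, act directly or end the signal. Their RNAs are short-lived, and their cortical level in mice is known to follow waking, handling and sensory input in the preceding hour.

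The 4 sequences below are the 250 bases before the transcription start of 4 of these genes, shown because the half-site TGACG, the core of the element that CREB binds, lies in each. They are RefSeq promoters on GRCm38.p6, printed 5′ to 3′ on the strand of the gene, with TGACG or its reverse complement CGTCA in capitals. The Fos window is chr12:85473640-85473889 on the plus strand, Junb chr8:84978749-84978998 on the minus strand, Egr2 chr10:67537619-67537868 on the plus strand and Nr4a1 chr15:101266596-101266845 on the plus strand. None of the 4 windows overlaps an annotated exon.
Fos: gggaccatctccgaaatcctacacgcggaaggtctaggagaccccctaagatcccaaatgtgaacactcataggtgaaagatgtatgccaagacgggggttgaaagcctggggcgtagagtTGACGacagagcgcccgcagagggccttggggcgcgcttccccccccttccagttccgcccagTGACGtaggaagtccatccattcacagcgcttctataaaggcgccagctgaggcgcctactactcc
Junb: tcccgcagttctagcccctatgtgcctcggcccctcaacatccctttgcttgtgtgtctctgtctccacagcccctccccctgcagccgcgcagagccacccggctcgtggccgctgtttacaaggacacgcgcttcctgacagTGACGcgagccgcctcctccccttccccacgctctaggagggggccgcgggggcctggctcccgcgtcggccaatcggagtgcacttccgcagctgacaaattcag
Egr2: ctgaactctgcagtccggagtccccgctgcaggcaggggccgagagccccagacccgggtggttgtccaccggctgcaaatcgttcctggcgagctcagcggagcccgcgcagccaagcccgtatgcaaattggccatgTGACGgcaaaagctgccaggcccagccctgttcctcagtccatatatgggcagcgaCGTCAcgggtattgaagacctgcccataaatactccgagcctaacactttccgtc
Nr4a1: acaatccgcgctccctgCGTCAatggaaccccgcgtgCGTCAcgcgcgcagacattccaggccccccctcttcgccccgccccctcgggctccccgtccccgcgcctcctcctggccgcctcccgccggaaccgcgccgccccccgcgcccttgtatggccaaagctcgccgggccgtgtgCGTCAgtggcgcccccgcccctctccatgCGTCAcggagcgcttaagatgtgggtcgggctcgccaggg
The RefSeq table held windows for 7 of the 10 genes, Fos, Fosb, Junb, Egr2, Npas4, Nr4a1 and Dusp1, and all 7 held TGACG on either strand in the 250 bases. Of all 32851 promoter windows in the table, 17.8% held it in the same length. The first base of the half-site lay at -129 and -66 in Fos, -106 in Junb, -111 and -55 in Egr2, and -233, -213, -69 and -40 in Nr4a1, counted from the RefSeq start site. The full CREB site TGACGTCA, which contains the half-site on both strands, was in 1 of the 7 windows, that of Dusp1 at -143, against 1.55% of all windows. A CArG box, the element of serum response factor, was in 1 of the 7, Egr2 at -72 (1.47% of all windows). The AP-1 site TGANTCA was in 0 of the 7 (6.75% of all windows), and TATAAA was in 1, Fos at -33 (12.4% of all windows). The windows of Fosb, Npas4 and Dusp1, the last with the full CREB site, overlap an annotated exon. A match of letters is a description of the window and says nothing of binding in these samples.

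Some libraries stand apart in ways that the labels, which give no batch, do not name. TG10M replicates 1 and 5 and WT10M replicate 5 had scores of 26.2 to 30.9 on the first principal component of all tested genes, which holds 23.9% of the variance, against -12.1 to 2.5 in the other 17. These 3 and TG03M replicates 2 to 5 had 13.9 to 20.5 FPKM of Hsp90aa1, an abundant chaperone gene, against 532 to 687 FPKM in the other 13. Cortical neuron markers were present in every library: the 8 excitatory neuron markers, with Slc17a7 among them, summed to 521 to 913 FPKM with none at 0, and hippocampal markers summed to 4.10 to 10.9 FPKM with 3 of 7 never reaching 0.5 FPKM. Striatal markers summed to 168 to 486 FPKM and choroid plexus markers to 8.18 to 1043 FPKM.

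None of the 10 immediate early genes passed the test in any comparison of genotype or age, and all 10 spread widely between replicates of 1 group. Values are FPKM, mapped fragments scaled to transcript length and library depth, as the authors computed them. Log2 differences are differences of the mean log2(FPKM + 0.5), a scale on which low values show too small a change, and were tested with limma over the 13722 genes with a mean of at least 0.5 FPKM. Genes with a Benjamini-Hochberg adjusted p under 0.05 were called. In PS19 against wild type, 0 of the 10 genes were called at 3 months, where 0.299% of all tested genes were called, and 0 of 10 at 10 months, where 0.634% were. For age, 0 of 10 were called at 10 against 3 months in wild type (0.0656% of all genes) and 0 of 10 in PS19 (0.845%). The interaction, the PS19 difference at 10 months minus that at 3 months, called 0 of 10 (0.0364%). At an unadjusted p under 0.05 with limma the counts were 0, 0, 0, 1 and 0, and the 1 was Npas4 in PS19 at 10 against 3 months. The shares of all tested genes at that p were 10.6%, 14.1%, 6.72%, 16.1% and 5.04%. With fewer than 1% of all genes called in each comparison, 0 of 10 is close to the background share. The median SE of a difference between groups was 0.33 on the log2 scale for the 10 genes, against 0.09 for all genes tested.

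**Figure D1:**
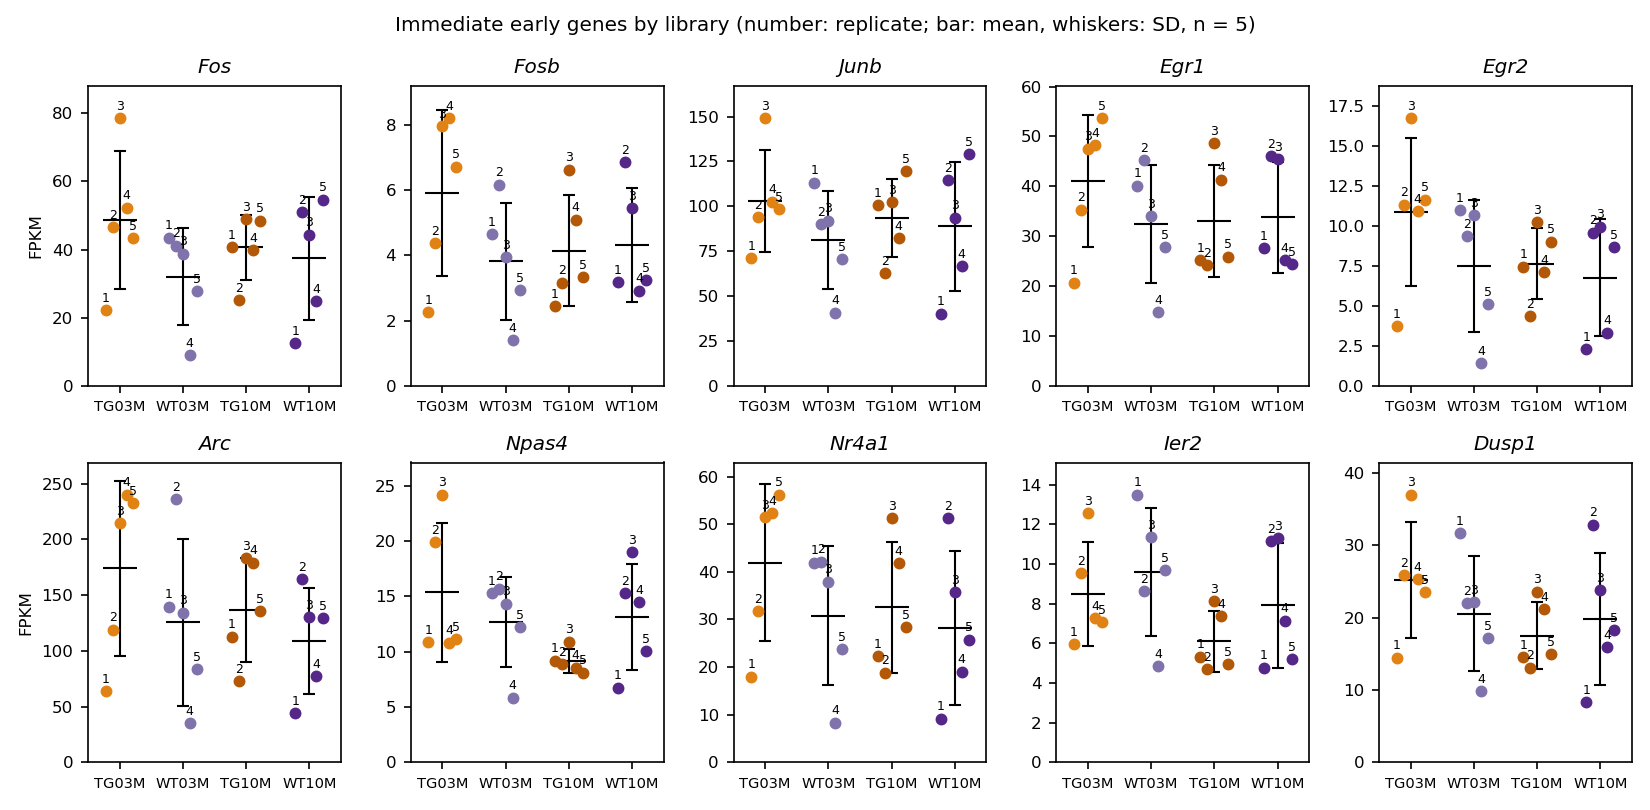
FPKM of the 10 genes (y axis, linear from 0) in each library, by group (x axis), with points numbered by replicate, a bar at the mean and whiskers of 1 SD (n = 5). The 4 groups overlap for each gene, WT03M replicate 4 is the lowest of its group in all 10 panels, and TG03M replicate 3 is the highest of its group in 6.

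Fos, Fosb and Junb encode subunits of AP-1, the dimer of Fos and Jun family proteins. Fos (ENSMUSG00000021250; GRCm38 chromosome 12, 85473890 to 85477273, plus strand) had 22.2, 46.6, 78.6, 52.3 and 43.4 FPKM in TG03M replicates 1 to 5, against 43.5, 41.1, 38.8, 9.04 and 27.7 FPKM in WT03M. At 10 months Fos had 40.7, 25.1, 48.9, 39.9 and 48.5 FPKM in TG10M, against 12.5, 50.97, 44.4, 24.9 and 54.7 FPKM in WT10M. The groups overlapped at both ages: TG03M held the highest library and WT03M the lowest, and at 10 months the lowest and the highest library were both wild type. The log2 difference of Fos was 0.67 at 3 months (SE 0.42, 95% interval -0.22 to 1.55, adjusted p = 0.610), the largest of the 10 genes, and 0.26 at 10 months (SE 0.42, adjusted p = 0.810). The interval at 10 months was -0.63 to 1.15, so that neither age shows the genotypes to have the same level.

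Fosb (ENSMUSG00000003545; chromosome 7, 19302696 to 19310051, minus strand), whose truncated product accumulates under repeated activity, had the lowest level of the 10 per transcript length, with a mean of 4.54 FPKM over the 20 libraries. It had 2.25, 4.37, 7.95, 8.203 and 6.71 FPKM in TG03M, against 4.64, 6.16, 3.94, 1.41 and 2.94 FPKM in WT03M. The values at 3 months ran high in TG03M replicates 3 to 5 and low in TG03M replicate 1 and WT03M replicate 4, with overlap. At 10 months Fosb had 2.45, 3.16, 6.63, 5.09 and 3.34 FPKM in TG10M and 3.17, 6.86, 5.45, 2.92 and 3.23 FPKM in WT10M, where replicates 2 and 3 of WT10M and 3 and 4 of TG10M were the high ones. Its log2 difference was 0.57 at 3 months (SE 0.35, adjusted p = 0.597), the smallest adjusted p of the 10 genes there, and -0.06 at 10 months (SE 0.35, adjusted p = 0.952).

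Junb (ENSMUSG00000052837; chromosome 8, 84974484 to 84978718, minus strand), the Jun partner that is itself induced early, had 71.2, 93.8, 149, 102 and 98.4 FPKM in TG03M, against 113, 90.04, 92.04, 40.8 and 70.7 FPKM in WT03M. TG03M replicate 3 stood above all 20 libraries. At 10 months Junb had 100.6, 62.8, 102, 82.4 and 119.7 FPKM in TG10M and 40.3, 114, 93.7, 66.5 and 129 FPKM in WT10M. WT10M thus spanned the whole TG10M range, with replicate 1 the lowest of the 20 libraries. The log2 difference of Junb was 0.38 at 3 months (SE 0.29, adjusted p = 0.685) and 0.15 at 10 months (SE 0.29, adjusted p = 0.834). The span of Junb meets that of Prdx2 on the other strand, and the span of Dusp1 meets that of Ergic1, but no exon of the 10 genes overlaps an exon of another gene.

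Egr1 (ENSMUSG00000038418), a zinc-finger factor also known as Zif268 and used as a marker of active neurons, had 20.7, 35.3, 47.5, 48.3 and 53.7 FPKM in TG03M, against 40.1, 45.2, 34.1, 14.8 and 27.8 FPKM in WT03M. TG03M replicates 3 to 5 were above the 5 WT03M libraries, and TG03M replicate 1 was below all but 1 of them. At 10 months the values were 25.3, 24.1, 48.7, 41.3 and 25.9 FPKM in TG10M and 27.7, 46.03, 45.5, 25.1 and 24.4 FPKM in WT10M. Each group at 10 months held 2 libraries at 41.3 FPKM or more and 3 at 27.7 FPKM or less. The log2 difference of Egr1 was 0.36 at 3 months (SE 0.30, adjusted p = 0.713) and -0.03 at 10 months (SE 0.30, adjusted p = 0.968).

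Egr2 (ENSMUSG00000037868; chromosome 10, 67535475 to 67542188, plus strand), a zinc-finger factor also known as Krox20 that Schwann cells use to make myelin, had 3.73, 11.3, 16.8, 10.9 and 11.7 FPKM in TG03M, against 11, 9.37, 10.7, 1.404 and 5.12 FPKM in WT03M. At 10 months it had 7.46, 4.36, 10.3, 7.098 and 9.02 FPKM in TG10M and 2.31, 9.59, 9.95, 3.33 and 8.69 FPKM in WT10M. Of the 10 genes Egr2 spread most between replicates, with a within-group SD of 0.83 on the log2 scale. Over all libraries it ran from 1.404 FPKM in WT03M replicate 4 to 16.8 FPKM in TG03M replicate 3, an 11.9-fold range. The groups overlapped at both ages, and WT10M held the lowest and the second lowest library at 10 months. The log2 difference was 0.63 at 3 months (SE 0.48, adjusted p = 0.678) and 0.30 at 10 months (SE 0.48, adjusted p = 0.797).

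Npas4 (ENSMUSG00000045903; chromosome 19, 4984355 to 4990316, minus strand), a factor induced by calcium in neurons that organizes inhibitory synapses, had 10.8, 19.9, 24.2, 10.8 and 11.2 FPKM in TG03M, against 15.3, 15.7, 14.3, 5.86 and 12.2 FPKM in WT03M. At 10 months it had 9.196, 8.91, 10.9, 8.56 and 8.103 FPKM in TG10M, against 6.76, 15.3, 19, 14.5 and 10.1 FPKM in WT10M. TG10M was the most even of the 4 groups for Npas4: its 5 libraries lay between 8.10 and 10.9 FPKM, and the highest of them was just above the 2 lowest TG03M libraries, at 10.8 FPKM each. WT10M overlapped TG10M, with 3 libraries above and 1 below the whole TG10M range. Npas4 in PS19 at 10 against 3 months had the log2 difference -0.64 (SE 0.28, 95% interval -1.23 to -0.06, unadjusted p = 0.0331), and did not pass over all genes, with an adjusted p of 0.272. Against wild type its log2 difference was 0.26 at 3 months (adjusted p = 0.783) and -0.43 at 10 months (SE 0.28, adjusted p = 0.494), and the interaction was -0.69 (SE 0.40, adjusted p = 0.962).

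Nr4a1 (ENSMUSG00000023034; chromosome 15, 101254269 to 101274795, plus strand), an orphan nuclear receptor also known as Nur77, had 18.03, 31.7, 51.5, 52.3 and 56.2 FPKM in TG03M, against 41.9, 42.1, 37.9, 8.36 and 23.8 FPKM in WT03M. TG03M replicates 3 to 5 exceeded each WT03M library, while replicates 1 and 2 lay within the WT03M range. At 10 months Nr4a1 had 22.3, 18.9, 51.3, 41.9 and 28.4 FPKM in TG10M and 9.16, 51.2, 35.8, 19.04 and 25.8 FPKM in WT10M. The highest library was 51.3 FPKM in TG10M and 51.2 FPKM in WT10M, and the lowest was WT10M replicate 1. The log2 difference was 0.53 at 3 months (SE 0.46, adjusted p = 0.727) and 0.32 at 10 months (SE 0.46, adjusted p = 0.779).

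Arc (ENSMUSG00000022602; chromosome 15, 74669083 to 74672570, minus strand) is the synaptic effector of the set, a protein that removes AMPA receptors from synapses and forms capsid-like particles. It had the highest level per transcript length, a mean of 136 FPKM over the 20 libraries. In TG03M it had 64.2, 119, 215, 240.2 and 232 FPKM, against 139.7, 236, 134, 35.2 and 83.5 FPKM in WT03M. In TG10M it had 113, 72.95, 183, 179 and 136 FPKM, against 44.3, 164, 130.2, 77.1 and 129 FPKM in WT10M. WT03M alone ran from 35.2 to 236 FPKM, close to the range of 35.2 to 240.2 FPKM over all 20 libraries. The log2 difference of Arc was 0.56 at 3 months (SE 0.46, 95% interval -0.40 to 1.52, adjusted p = 0.706) and 0.39 at 10 months (SE 0.46, 95% interval -0.57 to 1.35, adjusted p = 0.728), the largest of the 10 genes at that age.

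Ier2 (ENSMUSG00000053560; chromosome 8, 84661331 to 84662852, minus strand), a small nuclear protein, was the 1 gene whose highest group mean was in WT03M and not in TG03M. It had 5.96, 9.52, 12.6, 7.26 and 7.07 FPKM in TG03M, against 13.5, 8.62, 11.4, 4.84 and 9.695 FPKM in WT03M. At 10 months it had 5.32, 4.69, 8.14, 7.38 and 4.96 FPKM in TG10M and 4.78, 11.1, 11.3, 7.15 and 5.202 FPKM in WT10M. The groups overlapped at both ages, and WT03M replicate 1 was the highest of the 20 libraries. Its log2 difference was -0.15 at 3 months (SE 0.27, adjusted p = 0.890) and -0.30 at 10 months (SE 0.27, adjusted p = 0.621).

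Dusp1 (ENSMUSG00000024190; chromosome 17, 26505590 to 26562128, minus strand), a phosphatase that switches MAP kinases off and so feeds back on the pathway, had 14.5, 25.9, 37.03, 25.4 and 23.6 FPKM in TG03M, against 31.7, 22, 22.2, 9.83 and 17.2 FPKM in WT03M. At 10 months it had 14.6, 13.1, 23.6, 21.2 and 14.9 FPKM in TG10M and 8.38, 32.9, 23.8, 15.98 and 18.3 FPKM in WT10M. WT10M was again the widest group and spanned the TG10M values. The log2 difference of Dusp1 was 0.32 at 3 months (SE 0.32, adjusted p = 0.759) and -0.09 at 10 months (SE 0.32, adjusted p = 0.925). Glucocorticoids also induce Dusp1, and the 10 glucocorticoid response genes are given further on.

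**Figure D2:**
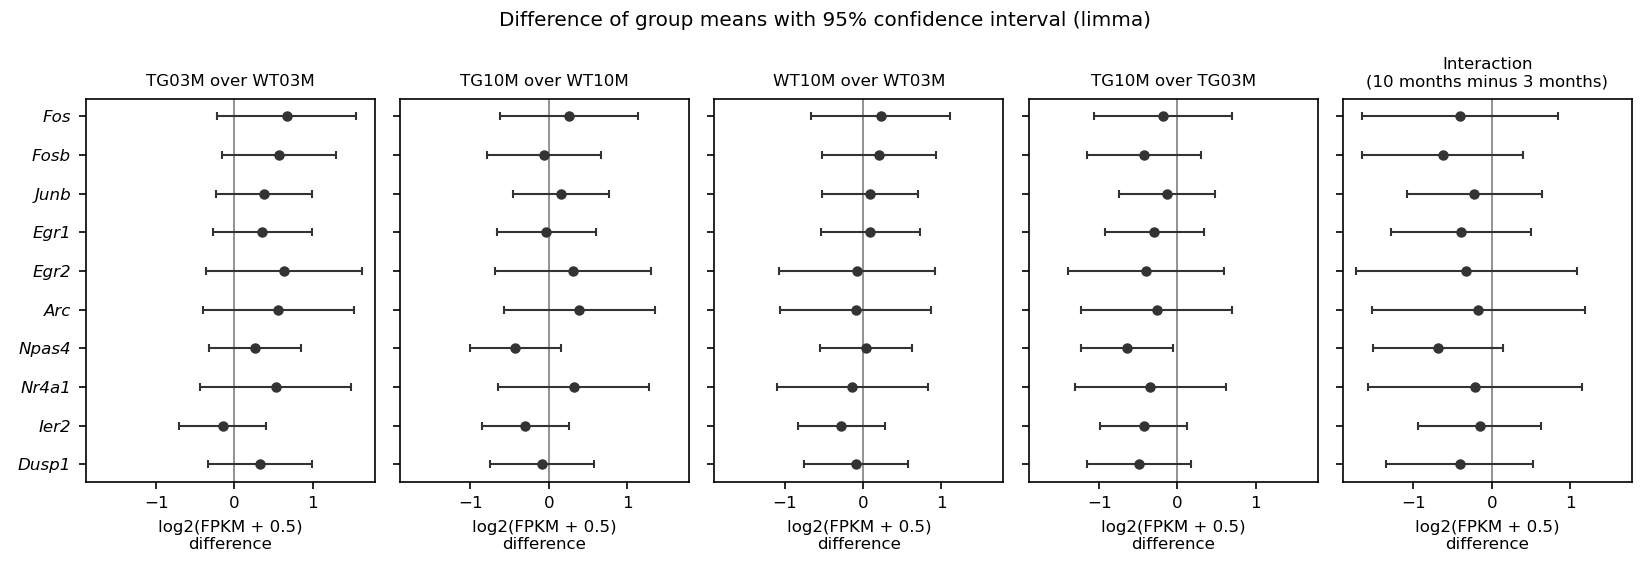
Log2 differences (x axis, log2(FPKM + 0.5) scale) of the 10 genes in the 5 comparisons, with 95% confidence intervals from limma. Each interval includes 0 except that of Npas4 in TG10M over TG03M, -1.23 to -0.06, and the points lie right of 0 for 9 of 10 genes in TG03M over WT03M and left of 0 for 10 of 10 in TG10M over TG03M.

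At 3 months the log2 differences of PS19 against wild type were above 0 for 9 of the 10 genes, with a median of 0.45, against -0.002 for all genes tested. None was called, and the median rested on single libraries: it was 0.14 without WT03M replicate 4 and 0.69 without TG03M replicate 1. TG03M replicate 1 was the lowest of its group for 9 of the 10 genes and WT03M replicate 4 the lowest of its group for all 10. TG03M replicate 1 was also the 1 TG03M library with high Hsp90aa1, at 560.3 FPKM, where TG03M replicates 2 to 5 had 16.2 to 20.5 FPKM. Without the 7 libraries with low Hsp90aa1 TG03M is 1 library, whose spread is assumed equal to that of the other groups, and the median of the 10 genes was -0.54. The sign of the 3-month median therefore depended on which TG03M libraries were used.

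At 10 months the differences of PS19 against wild type were above 0 for 5 of the 10 genes and below 0 for 5, with a median of 0.06, against 0.001 for all genes. The median was -0.094 without WT10M replicate 1 and 0.20 without WT10M replicate 2. The differences ran from -0.43 for Npas4 to 0.39 for Arc. In the 7 libraries at 10 months outside the 3 that stand apart, the differences were above 0 for 8 of 10 genes with a median of 0.13. In the 3, which are 2 of TG10M and 1 of WT10M and give no test, 1 of 10 was above 0 and the median was -0.11.

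With age in wild type, 5 differences of WT10M against WT03M were above 0 and 5 below, with a median of -0.02, against -0.003 for all genes. That median was -0.26 without WT03M replicate 4 and 0.21 without WT10M replicate 1. The range was -0.28 for Ier2 (SE 0.27, adjusted p = 0.900) to 0.23 for Fos (SE 0.42, adjusted p = 0.944). In PS19, all 10 differences of TG10M against TG03M were below 0, with a median of -0.37, against 0.001 for all genes. It was -0.60 without TG03M replicate 1 and -0.21 without TG10M replicate 2. After Npas4, the lowest were -0.50 for Dusp1 (SE 0.32, adjusted p = 0.434), -0.43 for Ier2 (SE 0.27, adjusted p = 0.415) and -0.42 for Fosb (SE 0.35, adjusted p = 0.536). The highest were -0.13 for Junb and -0.18 for Fos. This comparison shares the 5 TG03M libraries with that of genotype at 3 months, so the signs of the 2 are not independent. Without the 7 libraries with low Hsp90aa1 its median was 0.76, again with TG03M replicate 1 alone.

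The interaction was below 0 for 10 of 10 genes, with a median of -0.36, against 0.002 for all genes, and the smallest adjusted p was 0.962. It was -0.69 for Npas4, -0.63 for Fosb, -0.41 for Fos and -0.41 for Dusp1, with SEs of 0.40 to 0.60. Leaving out WT03M replicate 4 brought the median to -0.003. The 10 genes were correlated between libraries, so their 10 signs are not 10 separate observations.

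TG03M had the highest mean of the 4 groups for 9 of the 10, for example 48.6 ± 20.2 FPKM for Fos (SD, n = 5), against 40.6 ± 9.62 FPKM in TG10M, 37.5 ± 18.1 FPKM in WT10M and 32.04 ± 14.2 FPKM in WT03M. Arc followed with 174 ± 78.3 FPKM in TG03M, 137 ± 46.3 FPKM in TG10M, 126 ± 74.9 FPKM in WT03M and 109 ± 47.7 FPKM in WT10M. Npas4 had 15.4 ± 6.28 FPKM in TG03M, 13.1 ± 4.77 FPKM in WT10M, 12.7 ± 4.04 FPKM in WT03M and 9.14 ± 1.08 FPKM in TG10M. No 2 neighbours in these orders differed beyond their spread, and for all 10 genes the ranges of the 4 groups shared values.

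The 10 genes spread between replicates more than most tested genes. Within groups, the SD of log2(FPKM + 0.5) was 0.46 for Ier2 to 0.83 for Egr2, against a median of 0.14 over the 13722 genes tested and 0.13 over the 9296 with a mean level between those of Fosb and Arc. Of the tested genes, 0.55% spread more than Egr2, 0.60% more than Nr4a1, 0.62% more than Arc and 0.79% more than Fos. At the other end, 2.43% spread more than Ier2 and 2.16% more than Npas4. The lowest library of each gene had an estimated 102 fragments (Egr2) to 2653 fragments (Arc), which gives a counting error of at most 9.9%. These estimates rest on the depth read from the steps of low FPKM values, 22500000 to 30100000 fragments per library, and cover counting error only.

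**Figure D3:**
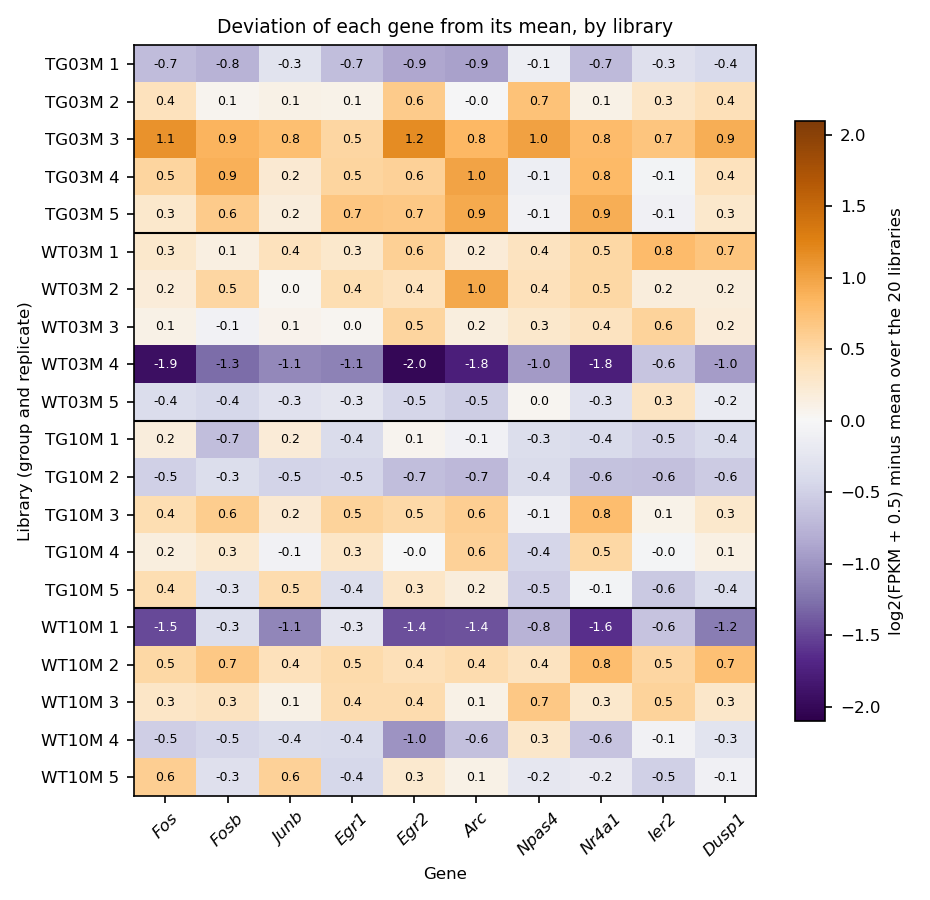
Deviation of log2(FPKM + 0.5) from the gene's mean over the 20 libraries, by library (rows, grouped as TG03M, WT03M, TG10M and WT10M) and gene (columns). Whole rows share a sign: all 10 genes are below their mean in TG03M replicate 1, WT03M replicate 4, TG10M replicate 2 and WT10M replicate 1, and all 10 are above it in TG03M replicate 3, WT03M replicates 1 and 2, and WT10M replicates 2 and 3.

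The spread was shared, so that a library was low or high in most of the 10 genes at once. WT03M replicate 4 held the lowest value of the 20 libraries for 7 of the 10 genes and 1 of the 3 lowest for all 10, with a median deviation of -1.21 on the log2 scale from each gene's mean. WT10M replicate 1 had a median deviation of -1.14 and the lowest Junb and Dusp1. TG03M replicate 1 and TG10M replicate 2 were below the mean for all 10 genes, by medians of -0.68 and -0.53. At the other end, TG03M replicate 3 held the highest value of 5 genes (Fos, Junb, Egr2, Npas4 and Dusp1), with a median deviation of 0.84. Every group thus contained at least 1 library low in all or most of the 10 genes and at least 1 high, in both genotypes and at both ages. With Dixon's test on FPKM for an outlying library in a group of 5, none of the 40 combinations of gene and group passed the 95% limit. This depends on the scale. The log2 deviations of Npas4 in WT03M, -0.956 in replicate 4 against 0.046 to 0.393 in the other replicates, would pass that limit. A group of 5 also gives the test little power.

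Choroid plexus markers differed between libraries as well, and 3 of the 4 libraries low in all 10 early genes were among those with high choroid plexus markers. The summed level of the 7 markers, among them Ttr and Folr1, was 328 to 1043 FPKM in 6 libraries and 8.18 to 64.0 FPKM in the other 14. Of those 4, TG03M replicate 1 had 847 FPKM, TG10M replicate 2 had 328 FPKM and WT10M replicate 1 had 513 FPKM, while WT03M replicate 4 had 20.8 FPKM. The other libraries with high choroid plexus markers were not low in all 10 genes. TG03M replicate 4, with the highest Fosb and Arc of all libraries, had 1043 FPKM. WT10M replicate 3, with all 10 genes above their mean, had 358 FPKM. TG10M replicate 1, with 7 of the 10 genes below their mean and a median deviation of -0.37, had 419 FPKM. The part of choroid plexus tissue in the spread of the early genes was not tested.

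Across the 20 libraries, deviations from the group means were positively correlated for all 45 pairs of genes. Pearson's r had a median of 0.82 and a range of 0.57 to 0.97, and Spearman's rho a median of 0.70 and a range of 0.37 to 0.96. Permuting libraries within groups 100000 times gave Benjamini-Hochberg adjusted p-values over the 45 pairs of at most 0.0253 for r. For rho 2 pairs did not pass, Arc with Npas4 (adjusted permutation p = 0.16) and Junb with Egr1 (0.0937). The tightest pairs were Fos with Junb (r = 0.97, rho = 0.96), Fos with Egr2 (r = 0.97, rho = 0.92) and Fosb with Egr1 (r = 0.97, rho = 0.91), each with a permutation p of 1e-05 for r, the smallest that the permutations can give, and an adjusted p of 7.5e-05. Arc was closest to Nr4a1 (r = 0.96, rho = 0.90), Dusp1 to Nr4a1 (r = 0.93, rho = 0.88), and Npas4 to Ier2 (r = 0.87, rho = 0.86). Each pair was also taken without the 2 libraries farthest from the median deviation of its first gene, in the order listed at the start. The 45 values of r then had a median of 0.69 and a range of 0.35 to 0.96. They were 0.94 for Fos with Junb, 0.96 for Fos with Egr2 and 0.95 for Fosb with Egr1. Looser pairs lost more: Junb with Npas4 had r = 0.35 without WT03M replicate 4 and WT10M replicate 1, against 0.66 with them. All pairs share the libraries, their depth and their scaling.

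In the 3 libraries that stand apart, TG10M replicates 1 and 5 and WT10M replicate 5, some of the 10 genes stood in other proportions. Not all were shifted: Arc had 113 to 136 FPKM in the 3, with a median of 129 FPKM. Its median was 130 FPKM in the 7 other libraries at 10 months. Junb had 100.6 and 119.7 FPKM in TG10M replicates 1 and 5 and 129 FPKM in WT10M replicate 5, against a median of 82.4 FPKM in the 7 other libraries at 10 months. Egr1 had 25.3 and 25.9 FPKM in TG10M and 24.4 FPKM in WT10M, against a median of 41.3 FPKM in the 7 others. The ratio of Junb to Egr1 was thus 3.98 to 5.28 in the 3 libraries, above each of the 17 others, at 1.46 to 3.44. The ratio of Fos to Fosb was 14.5 to 16.9 in the 3, against 3.95 to 10.7 in the 17, and that of Junb to Ier2 18.9 to 24.8, against 7.29 to 14.1. These 3 ratios do not overlap, and both genotypes are among the 3 libraries. The ratio of Fos to Egr1 did overlap, with 1.61 to 2.24 in the 3 and 0.45 to 1.65 in the 17. Values of these ratios were looked at after the libraries had been set apart, and are a description.

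**Figure D4:**
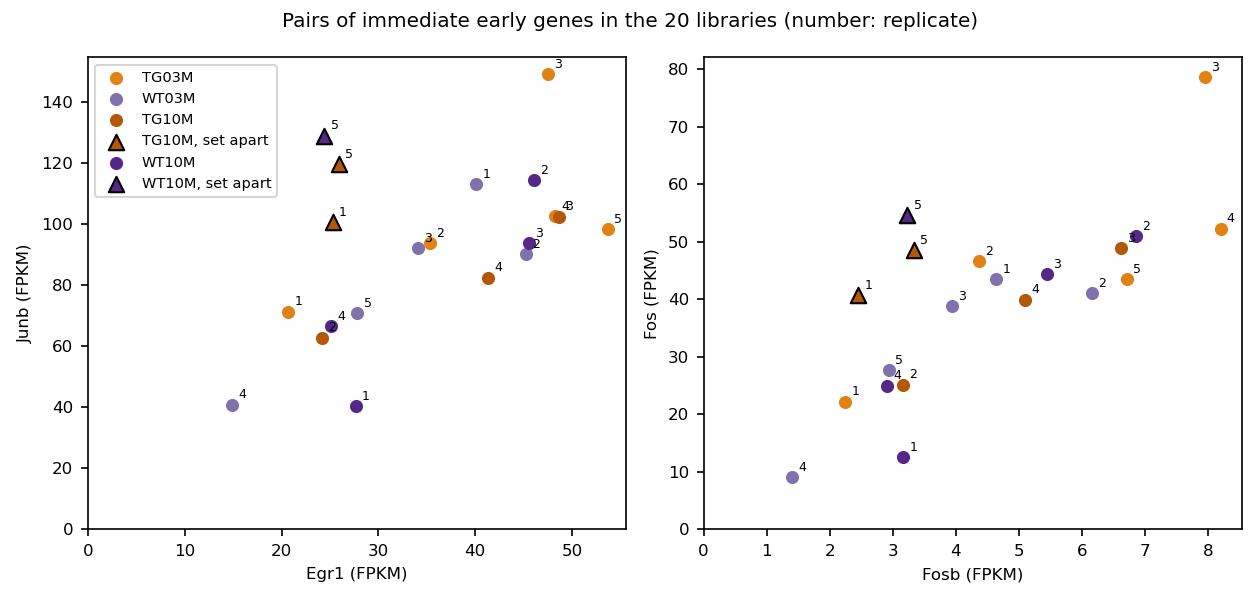
Junb against Egr1 and Fos against Fosb (FPKM, linear axes from 0) in the 20 libraries, coloured by group and numbered by replicate, with triangles for WT10M replicate 5 and TG10M replicates 1 and 5. The 3 triangles lie apart from the other 17 libraries, with low Egr1 (24.4 to 25.9 FPKM) and low Fosb (2.45 to 3.34 FPKM) beside Junb and Fos within the range of the others, and with ratios of Junb to Egr1 of 3.98 to 5.28 against 1.46 to 3.44.

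In the 17 libraries without those 3, the pairs were tighter. The median r over the 45 pairs was 0.90, with a range of 0.58 to 0.98. For Junb with Egr1 r was 0.83 (permutation p = 0.00027), against 0.57 in all 20, and for Fos with Fosb it was 0.89 (permutation p = 6e-05), against 0.74. The ratios of these pairs set the 3 libraries apart above, so the higher r without those libraries is no separate result. Arc with Npas4 stayed loose, at 0.63 (permutation p = 0.022). The permutation p-values for the 17 libraries are not adjusted.

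Likeness to the 10 genes was measured as Pearson's r over the 20 libraries with the mean of their standardized deviations from the group means. The 10 genes themselves had r of 0.80 to 0.97 with it, but each is part of that mean, which raises its r. Among 12753 other tested genes with a mean of at least 1 FPKM, the most like was Egr4, a further zinc-finger factor of the Egr family, with r = 0.986 and a level of 7.28 to 27.2 FPKM. It was followed by the small GTPase Arl4d (0.920), Zfp36, which speeds the decay of AU-rich RNAs (0.893), the kinase Sik1 (0.876) and the ERK phosphatase Dusp6 (0.853). The next were Spty2d1 (0.849), the beta-1 adrenergic receptor Adrb1 (0.848), Rasl11a (0.846), the secreted matrix protein Cyr61 (0.845) and the pseudokinase Trib1 (0.838). Fos alone was most like Egr4 (0.953), Arl4d (0.939), Cyr61 (0.930), Gadd45b (0.926) and Dusp6 (0.868). Arc was most like Dusp6 (0.959), Egr4 (0.937), Rasl11a (0.937), Dusp5 (0.936) and Ptgs2 (0.929), the last being cyclooxygenase 2. Dusp1 was most like Egr4 (0.940), Arl4d (0.899), Zfp36 (0.864), Cyr61 (0.859) and Sik1 (0.849).

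**Figure D5:**
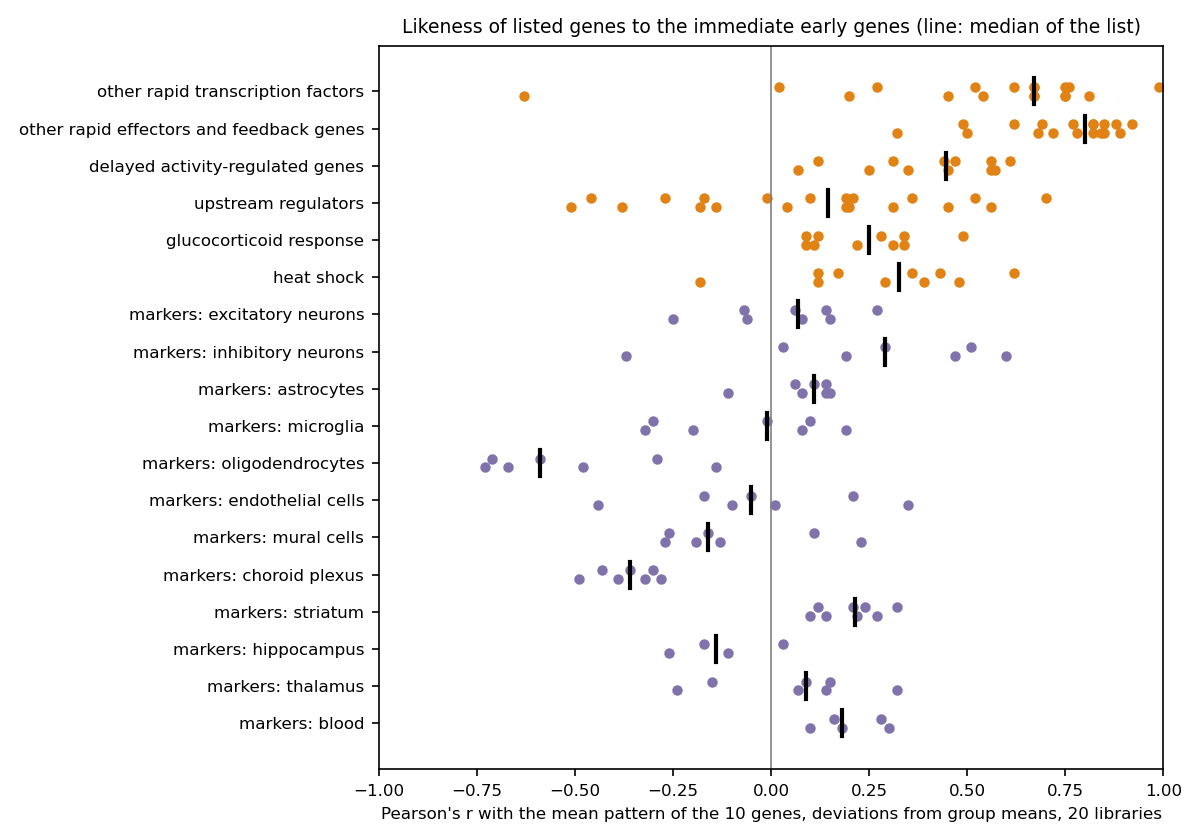
Pearson's r of each listed gene with the mean pattern of the 10 genes (x axis, deviations from group means over 20 libraries), by list (y axis), with a line at the median of each list. Other early genes lie to the right (medians 0.67 and 0.80), upstream regulators around 0.15, and the 7 oligodendrocyte markers to the left (median -0.59).

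Most other rapid genes had high values of r, and delayed or upstream genes lower ones. Of 18 other rapid effector and feedback genes, 18 had a positive r and 16 an r over 0.5 (median 0.80), and of 18 other rapid transcription factors 17 and 13 (median 0.67). Klf6 was the exception, at -0.63, and Jund, a Jun gene that is expressed at rest, had 0.20. Over all other tested genes 4.26% had an r over 0.5 and the median was 0.01. Of 12 genes listed as delayed activity-regulated genes, 4 had an r over 0.5 (median 0.44), the highest being the sorting receptor Sorcs3 (0.61), the pentraxin Nptx2 (0.57), Bdnf (0.56) and Scg2 (0.56). Among the 20 upstream regulators the median was 0.15, with serum response factor Srf (0.70), the calcium channel Cacna1c (0.56) and the coactivator Crebbp (0.52) over 0.5 and Creb1 at -0.01. The 10 glucocorticoid response genes had r of 0.09 to 0.49, and 9 of the 10 heat shock genes were above 0, with Dnajb1 the highest (0.62).

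Cell type markers gave smaller values, with 1 list apart. All 7 oligodendrocyte markers were below 0, from -0.14 for Mbp to -0.73 for Mag (median -0.59), and all 7 choroid plexus markers were below 0 (-0.49 to -0.28). The 8 excitatory neuron markers had a median of 0.07 and a range of -0.25 to 0.27, and the 7 inhibitory neuron markers a median of 0.29, with Lhx6 at 0.60 and Gad2 at 0.51. Summed oligodendrocyte markers were 1634 to 1962 FPKM in TG03M, against 1414 to 1572 FPKM in WT03M, and 1547 to 1685 FPKM in TG10M, against 1261 to 1633 FPKM in WT10M. Mbp, whose r was closest to 0, is the largest part of this sum, at a mean of 835 FPKM. Mag, with the lowest r, overlapped at both ages. It had 84.0 to 104 FPKM in TG03M, against 79.8 to 103 FPKM in WT03M. At 10 months it had 81.8 to 105 FPKM in TG10M, against 68.85 to 99.5 FPKM in WT10M. The correlations are descriptions over 20 libraries that share their preparation, and the part of cell makeup in the early genes was not tested.

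Of the 10 genes, Egr1, Egr2 and Arc have more than 1 transcript in the table. Egr1 came as 77.9% ENSMUST00000165033 and 22.1% ENSMUST00000064795 of its summed FPKM, and Arc as 66.9% ENSMUST00000023268 and 33.1% ENSMUST00000110009. The 2 Arc transcripts differ by 1 base in length, so how the authors' estimate split them is uncertain. Egr2 came as 93.9% ENSMUST00000048289, and 6 further transcripts made up the rest. One of these, ENSMUST00000130933 of 427 bases, singled out after its values were seen, was above 0.5 FPKM in 4 PS19 libraries. It had 0.819 and 2.72 FPKM in TG03M replicates 1 and 2 and 0.968 and 1.19 FPKM in TG10M replicates 1 and 2, against values that round to 0 in 10 of 10 wild-type libraries. The other 6 PS19 libraries also rounded to 0, and an estimate near 0 can be a failed split between transcripts.

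At 3 months 0 of the 88 genes of the 6 further lists were called between PS19 and wild type, and 12 had an unadjusted limma p under 0.05, where 10.6% of all genes had one. All 18 other rapid effectors and all 12 delayed genes had log2 differences above 0, with medians of 0.28 and 0.20, as had 15 of 18 other rapid transcription factors (median 0.30). The 20 upstream regulators were split 10 and 10 (median 0.00). The 2 genes with the smallest p of each list were Zfp36, 0.86 (SE 0.21, adjusted p = 0.105), and Plk3, 0.50 (SE 0.16, adjusted p = 0.228), among effectors, and Per1, 0.49 (SE 0.17, adjusted p = 0.297), and Klf6, -0.16 (SE 0.07, adjusted p = 0.416), among transcription factors. Zfp36 had 1.38 to 2.76 FPKM in TG03M, against 0.351 to 1.43 FPKM in WT03M, and only TG03M replicate 1 lay below a WT03M library. Among delayed genes they were Nptx2 at 0.45 and Scg2 at 0.24, and among upstream regulators Crebbp, 0.27 (SE 0.08, adjusted p = 0.227), and Elk1 at 0.09. Of the glucocorticoid list the metallothioneins led, Mt2 with 0.88 (SE 0.25, adjusted p = 0.174) and Mt1 with 0.48 (SE 0.16, adjusted p = 0.234), and of the heat shock list Hsp90aa1 with -4.02 (SE 1.23, adjusted p = 0.213) and Hspb1 at 0.71.

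At 10 months 0 of the 88 were called between PS19 and wild type, and 16 had an unadjusted limma p under 0.05, where 14.1% of all genes had one. The 20 upstream regulators all had log2 differences below 0, with a median of -0.12, against 0.001 for all genes, among them the CREB coactivator Crtc1, -0.33 (SE 0.12, adjusted p = 0.204). Of the early lists, 14 of 18 transcription factors and 15 of 18 effectors were above 0. Among transcription factors the 2 smallest p were of Atf3, 0.84 (SE 0.27, adjusted p = 0.173), and Fosl1, -0.36 (SE 0.12, adjusted p = 0.174). Among effectors they were of Plk3, 0.41 (SE 0.16, adjusted p = 0.248), and Ier3, 0.23 (SE 0.13, adjusted p = 0.441). Scg2 had 0.23 and Rasgrp1 -0.07 among delayed genes, Nfkbia 0.43 (SE 0.12, adjusted p = 0.132) and Sgk1 0.63 (SE 0.20, adjusted p = 0.173) among glucocorticoid response genes, and Hsp90ab1 -0.37 and Hspb1 0.57 among heat shock genes. Markers of other cells were called in the same comparison, and are named after their values were seen. Of astrocyte markers 2 of 7 were called, Gfap with 1.34 (SE 0.15, adjusted p = 0.000134) and Aqp4 with 0.52 (SE 0.08, adjusted p = 0.00162), and 6 of 7 had differences above 0. The microglia marker C1qa rose by 0.74 (SE 0.14, adjusted p = 0.0171). Of mural cell markers 1 of 7 was called, Vtn with 0.58 (SE 0.12, adjusted p = 0.0237), and 7 of 7 had differences above 0. The part of these cells in the early gene values was not tested. Of excitatory neuron markers 0 of 8 were called, and 7 of the 8 had differences below 0. Their sum was 554 and 547 FPKM in TG10M replicates 1 and 5 and 521 FPKM in WT10M replicate 5, which stand apart. It was 680 to 740 FPKM in the other libraries at 10 months.

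With age in wild type 0 of the 88 genes were called, and 2 had an unadjusted limma p under 0.05, where 6.72% of all genes had one. Of the early lists, 6 of 18 transcription factors and 4 of 18 effectors were above 0 (medians -0.05 and -0.04). By smallest p, the first 2 of each list were Myc -0.29 and Klf4 -0.30 among transcription factors and Rgs2 0.10 and Ier5 -0.12 among effectors. Among delayed genes they were Nrn1 -0.19 and Rasgrp1 0.06. Rps6ka5, a kinase that phosphorylates CREB and histone H3, had 0.29 (SE 0.10, adjusted p = 0.539). Nfkbia had -0.23 and Sult1a1 0.42 in the glucocorticoid list, and Hspd1 -0.13 and Hsp90ab1 -0.45 in the heat shock list.

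With age in PS19, 1 of the 88 genes was called, and 19 had an unadjusted limma p under 0.05, where 16.1% of all genes had one. Of the 20 upstream regulators, 18 were below 0 (median -0.16), among them the cofactor Mkl2, -0.26 (SE 0.07, adjusted p = 0.109). Of the early lists, 13 of 18 transcription factors and 16 of 18 effectors were below 0. The smallest p within each list were of Bhlhe40, -0.39 (SE 0.15, adjusted p = 0.218), and Jund, 0.14 (SE 0.05, adjusted p = 0.225), among transcription factors. Among effectors they were of Zfp36, -0.72 (SE 0.21, adjusted p = 0.110), and Trib1, -0.38. Rasgrp1 had -0.08 and Nrn1 -0.10 among delayed genes, Fkbp5 -0.35 and Sgk1 0.31 among glucocorticoid response genes, and Hsp90ab1 -0.60 and Hspd1 -0.14 among heat shock genes. All 8 excitatory neuron markers had differences below 0 in this comparison, with a median of -0.22 and 0 called. Their sum was 554 and 547 FPKM in TG10M replicates 1 and 5, which stand apart. It was 712 to 740 FPKM in the other TG10M libraries and 771 to 913 FPKM in TG03M. Gfap rose by 1.46 and the microglia markers C1qa by 0.98 and Cx3cr1 by 0.26.

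For the interaction 0 of the 88 genes were called, and 7 had an unadjusted limma p under 0.05, where 5.04% of all genes had one. Of the markers, Gfap was called, at 1.398 (SE 0.22, adjusted p = 0.0122). The smallest p were of Fosl1 (-0.28) and Egr3 (-0.60), Zfp36 (-0.69) and Ier3 (-0.12), Rasgrp1 (-0.14) and Nptx2 (-0.28), Elk1 (-0.20) and Mkl2 (-0.26), Sult1a1 (-0.44) and Mt1 (-0.26), and Hsp90aa1 (3.02) and Hspa1a (0.20), each pair from 1 list and each value a log2 difference of differences. Among the non-coding genes of the deposited table that the GENCODE annotation places, none lies within 50 kb of any of the 10 early genes.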

How the data were processed

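RNA from cortex was sequenced in 20 libraries, 5 per group, on a HiSeq 4000, per the labels' protocols. The deposited values are FPKM per transcript. The submitters' processing notes name CASAVA, TopHat2, Cuffdiff and DESeq2 and the build GRCm38 (mm10), with order, versions, settings and the use of strand in counting not given in the sources used here. FPKM were summed over the transcripts of each gene, and 27 symbols stored as dates were restored by gene ID. FPKM keep no counts. Low values fell in steps, and comparing them in 1815 genes with 1 transcript of over 4000 bases gave a depth of 22500000 to 30100000 fragments per library, with 83.3% to 94.0% of low values within 0.1 of a whole multiple, where an even spread would give 20%.

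Log2(FPKM + 0.5) was fitted over the 4 groups with limma 3.58.1 in R 4.3.3 (16 residual degrees of freedom) for the 13722 genes with a mean of at least 0.5 FPKM, and p-values were adjusted over all of them by Benjamini-Hochberg. The script was tested on simulated data. Correlations and permutations used Python 3.11.15 and scipy 1.17.1. The 10 genes, the further lists and the sets of libraries were chosen with earlier results of these data known. Named were the 10 genes, every called gene and the 2 genes with the smallest p of 6 further lists in each comparison, called markers (some items that this rule names are not reported here), the 10 genes most like the mean pattern, and the 5 most like Fos, Arc and Dusp1. Positions are from the GENCODE mouse annotation, release 21. Alternatives were pseudocounts of 0.1 and 1, no filter or a mean of at least 1 FPKM, median centring, quantile normalization, the compared groups alone, a replicate block, array weights, the highest transcript, a term for 3 libraries, and leaving out those 3, 7 libraries or each library.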

Additional observations from a re-analysis of the deposited data

How the results depend on the processing

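Over the 10 genes and 5 comparisons, 1640 log2 differences were recomputed under 33 settings other than the reported one. Of these, 1550 kept their sign, 90 changed it, and 0 were called. The smallest adjusted p was 0.189, for Npas4 in TG10M against TG03M with a replicate block. Other pseudocounts, filters, scalings and the highest transcript in place of the sum changed no sign. Without the 7 libraries with low Hsp90aa1, which leaves TG03M with replicate 1 and assumes that it varies like the other groups, the log2 differences that changed sign were Fos -0.34, Fosb -0.53, Junb -0.11, Egr1 -0.54, Egr2 -0.67, Arc -0.71, Npas4 -0.14, Nr4a1 -0.56 and Dusp1 -0.40 in TG03M against WT03M. In TG10M against TG03M they were Fos 0.71, Fosb 0.94, Junb 0.18, Egr1 0.80, Egr2 0.80, Arc 1.05, Nr4a1 0.91, Ier2 0.13 and Dusp1 0.36, and in the interaction Fos 0.67, Fosb 0.66, Junb 0.25, Egr1 0.61, Egr2 1.005, Arc 1.24, Nr4a1 1.07, Ier2 0.29 and Dusp1 0.45. The medians of the 10 genes were then -0.54, 0.76 and 0.63. Without those 7, and likewise without the 3 libraries set apart, TG10M against WT10M gave Fosb 0.12, Egr1 0.07 and Dusp1 0.052 and WT10M against WT03M gave Junb -0.071. With a term for the 3 libraries these were Fosb 0.045 and Egr1 0.068, and Junb -0.027, and array weights gave Junb -0.021. Leaving out 1 library at a time changed signs as follows, with the lowest and highest log2 differences. In TG10M against WT10M Dusp1 ran -0.35 to 0.13, Egr1 ran -0.18 to 0.093, Fos ran -0.083 to 0.44, Fosb ran -0.24 to 0.11, Junb ran -0.10 to 0.32 and Nr4a1 ran -0.022 to 0.58. In WT10M against WT03M Arc ran -0.49 to 0.20, Dusp1 ran -0.32 to 0.18, Egr1 ran -0.16 to 0.23, Egr2 ran -0.53 to 0.22, Fos ran -0.17 to 0.57, Fosb ran -0.058 to 0.39, Junb ran -0.14 to 0.34, Npas4 ran -0.20 to 0.25 and Nr4a1 ran -0.54 to 0.20. In TG10M against TG03M Fos ran -0.44 to 0.015 and Junb ran -0.25 to 0.013. In the interaction Arc ran -0.49 to 0.22, Egr2 ran -0.65 to 0.13, Ier2 ran -0.30 to 0.059, Junb ran -0.48 to 0.006 and Nr4a1 ran -0.55 to 0.20. Over all tested genes, the counts of called genes depended on the setting, and the cause was not tested. In the order TG03M against WT03M, TG10M against WT10M, WT10M against WT03M, TG10M against TG03M and interaction they were 41, 87, 9, 116 and 5 as reported. They were 261, 945, 44, 136 and 10 with array weights, 473, 326, 11, 73 and 4 without the 3 libraries, 9, 330, 0, 8 and 3 without the 7, and 492, 178, 14, 104 and 5 with a term for the 3. Fits of the compared groups alone, run for the first 4, gave 221, 16, 1 and 52. No filter on low values gave 22 in TG03M against WT03M, and a minimum mean of 1 FPKM gave 3 in the interaction. Without 1 library they ran 11 to 108, 28 to 1600, 1 to 10, 56 to 288 and 4 to 6, with the 1600 without WT10M replicate 5. The replicate block gave 44, 72, 5, 94 and 6 and called none of the 10 genes. The replicate numbers were not taken to pair libraries: correlations of same-numbered libraries, as deviations from group means over all tested genes, were -0.42 to 0.10, -0.17 to 0.66, -0.05 to 0.10 and -0.12 to 0.08 in the 4 pairs of groups.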
